A study of Mus musculus with 12 samples.

Results

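The comparison described here is that of wild-type (WT, Ulk1/2+/+) mouse embryonic fibroblasts given interferon beta (IFNβ) with the same cells left untreated. It rests on the 6 arrays whose titles name that genotype, 3 with IFNβ at 2500 IU/ml for 6 h and 3 untreated, out of 12 in the series. The other 6 arrays carry cells that lack Ulk1 and Ulk2 (double knockout, DKO, Ulk1/2-/-), with and without IFNβ, and they entered the same statistical model. All cells were embryonic fibroblasts of strain C57BL/6J, connective tissue cells grown out of embryos, and total RNA was read on Illumina mouse bead arrays. Whether the replicates came from separate cultures or embryos is not stated, so each p-value measures the spread between these samples only, and 3 arrays a group limit the precision of every value.

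Type I interferons are proteins that cells release when they sense a virus. They bind a receptor of the subunits IFNAR1 and IFNAR2, whose kinases JAK1 and TYK2 phosphorylate transcription factors of the STAT family. A complex of STAT proteins with IRF9 binds the interferon-stimulated response element (ISRE) of antiviral genes, while STAT dimers bind a separate element named GAS. Fibroblasts are a classical responder, and the products of the induced genes block viral replication, display peptides on MHC class I, call in leukocytes and damp the signal again.

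Of 17 fibroblast markers on the array, 15 were detected on all 6 WT arrays (a detection p under 0.01, which sets a probe against the negative controls of its array). Of 20 leukocyte markers 17 were detected on 0 of these arrays, Ptprc, Itgam, Csf1r and Adgre1 among them, while Cd3e and Cd14 were detected on all 6. The summed raw intensity of the leukocyte markers was 3246 to 3692 units on IFNβ arrays and 3209 to 3650 on untreated arrays. Some markers of other cells moved with treatment. The summed intensity of 11 neural markers, 7 of them detected on 0 of the 6 arrays, was 3746 to 4706 units with IFNβ and 3419 to 3974 untreated, with Map2 up by 0.92 ± 0.13 on the log2 scale (its other probe was detected on 0 arrays) and Mbp at least 1.08-fold lower. Of the neural markers, Map2, Nes and Sox2 were detected on all 6 arrays. Of 10 endothelial markers 7 were detected on 0 arrays, Pecam1 and Cdh5 among them. Flt1 was detected on all 6, and Esam was at least 1.17-fold higher. The part of such cells in the results was not tested. Between 13912 and 14569 of 45281 probes were detected on IFNβ arrays and between 14351 and 14628 on untreated arrays. Replicate 3 of both groups had a higher median intensity (98.7 with IFNβ, 97.5 untreated) than replicates 1 and 2 (87.2 and 87.8 with IFNβ, 86.7 and 86.5 untreated). In a principal component analysis of the 6 arrays, the leading component took 73.2% of the variance and parted IFNβ from untreated arrays, and the next took 14.1% and parted replicate 3 from the others. Untreated replicate 1 stood apart in interferon genes. Among 151 genes of the interferon lists that were called higher, it was the highest of the 3 untreated arrays for 107 (70.9%, against 34.8% of all tested genes), and the mean log2 level of these genes was 8.91, 8.84 and 8.88 on the IFNβ arrays and 6.59, 6.27 and 6.33 on the untreated arrays. Without that array 306 in place of 300 genes changed at least 2-fold, and 646 were called higher and 661 lower.

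IFNβ changed the level of 1668 of 8898 tested genes (18.7%, limma adjusted p under 0.05, a gene past it being named "called" here), 719 higher (8.08%) and 949 lower (10.7%). The rises were larger than the falls. At least 2-fold changes numbered 284 higher (3.19%) and 16 lower (0.18%), and rises of at least 4-fold, 8-fold, 16-fold, 32-fold and 64-fold numbered 123, 57, 25, 9 and 4, against 0 falls of 4-fold or more. The 2-fold counts were 188 higher and 2 lower without background correction, 186 and 2 in the log2 table of the authors, and 180 and 1 in a test against a 2-fold change. The median log2 change was 0.81 among rises, -0.48 among falls and -0.08 over all tested genes, and 703 of the 949 falls (74.1%) were under 1.5-fold. With same-numbered arrays as pairs the counts were 1016 higher and 1788 lower, 2804 in all, and with cyclic loess scaling 811 and 587, so that 58.0% of the calls were rises in place of 43.1%. The count of falls dropped to 575 without untreated replicate 2 and to 627 without IFNβ replicate 3. Split by the signal of their probe in untreated cells into 4 classes of equal size, from dimmest to brightest, the genes held 109, 79, 62 and 34 rises of at least 2-fold and 102, 210, 303 and 334 falls. The filter on detection let in genes seen only with IFNβ, which lie in the dim classes, so these counts are a description. With detection on all 6 WT arrays required, 209 genes rose and 14 fell at least 2-fold. In all, 91 genes were detected on 3 of 3 IFNβ arrays and 0 of 3 untreated arrays, 86 of them called higher. The reverse was seen for 46 genes, 30 of them called lower. These patterns fix the direction of the change, but not whether it passed the test. RNA came from whole cultures, where a change in the share of responding cells and a change in RNA per cell cannot be told apart.

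**Figure D1:**
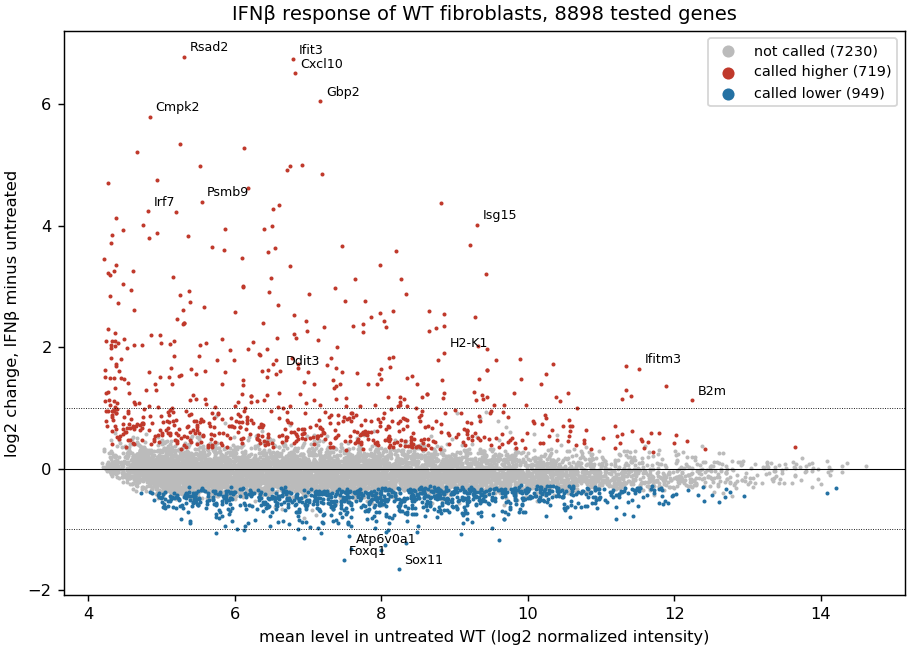
Each point is 1 of 8898 tested genes, with the mean log2 normalized intensity of the 3 untreated WT arrays on the horizontal axis and the log2 change (IFNβ minus untreated) on the vertical axis; colours mark genes called higher (719), called lower (949) and not called, and dotted lines mark a 2-fold change. The upper cloud reaches 6.78 (Rsad2), while the lowest point is -1.65 (Sox11).

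The 5 largest rises of genes seen in both groups belonged to antiviral enzymes, an RNA-binding protein, a chemokine and a GTPase. Rsad2, which encodes the antiviral radical SAM enzyme viperin, had log2 levels of 12.14, 12.19 and 11.91 on IFNβ arrays and 5.96, 4.77 and 5.18 on untreated arrays, where it was detected on 2 of 3. Ifit3, whose product works with other IFIT proteins on viral RNA, had 13.52, 13.63 and 13.45 with IFNβ and 7.59, 6.36 and 6.43 untreated. Cxcl10, a chemokine for activated T cells, had 13.22, 13.58 and 13.18 with IFNβ and 7.33, 6.68 and 6.44 untreated. In each of these genes the groups lay more than 5 log2 units apart at their nearest arrays, and untreated replicate 1 was the highest untreated array. The fitted log2 change of Rsad2 was 6.78 ± 0.24 (SE, with 3 arrays in each group, adjusted p = 1.1e-10 in limma), that of Ifit3 6.74 ± 0.27 (adjusted p = 2.9e-10) and that of Cxcl10 6.51 ± 0.20 (adjusted p = 4.4e-11). Gbp2, a guanylate-binding protein that attacks pathogen-holding vacuoles, had 13.24, 13.29 and 13.10 with IFNβ and 7.78, 6.97 and 6.75 untreated (6.04 ± 0.26, adjusted p = 5.5e-10). Cmpk2, a nucleotide kinase that lies beside Rsad2, had 10.71, 10.54 and 10.65 with IFNβ and 5.06, 4.60 and 4.85 untreated, where it was detected on 1 of 3 arrays (5.80 ± 0.17, adjusted p = 3.8e-11). The next 10 rises spanned 5.34 to 4.61 and were those of Ifi47, Phf11d, Oasl1, Oasl2, Parp14, Uba7, Igtp, Gbp3, Mx2 and Hap1, the last being huntingtin-associated protein 1, known from neurons. Other probes of several of these genes gave smaller rises, among them 0.86 and 3.37 for Oasl2, 1.42 and 1.19 for Parp14 and 0.59 for Hap1 (all called).

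Promoters of strongly induced genes are shown because the ISRE is the element through which the complex of STAT proteins and IRF9 acts. The sequences are RefSeq windows of build GRCm38.p6, from 250 bases before to 50 bases after the gene start, printed 5′ to 3′ on the strand of the gene. Capitals mark matches to the ISRE core, which was taken as GAAA, any 2 bases and GAAA, and searched on both strands, where it reads TTTC, any 2 bases and TTTC.
Rsad2: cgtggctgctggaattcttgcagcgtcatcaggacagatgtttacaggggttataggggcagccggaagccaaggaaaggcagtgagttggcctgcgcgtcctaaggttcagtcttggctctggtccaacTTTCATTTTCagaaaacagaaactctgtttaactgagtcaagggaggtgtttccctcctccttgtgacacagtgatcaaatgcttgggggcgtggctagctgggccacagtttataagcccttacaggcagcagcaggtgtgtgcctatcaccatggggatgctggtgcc
Ifit3: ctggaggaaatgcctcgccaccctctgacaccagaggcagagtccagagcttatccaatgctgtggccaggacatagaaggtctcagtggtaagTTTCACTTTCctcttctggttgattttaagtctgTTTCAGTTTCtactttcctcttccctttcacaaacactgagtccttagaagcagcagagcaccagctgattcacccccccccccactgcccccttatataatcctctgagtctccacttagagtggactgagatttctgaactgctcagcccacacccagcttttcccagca
Cxcl10: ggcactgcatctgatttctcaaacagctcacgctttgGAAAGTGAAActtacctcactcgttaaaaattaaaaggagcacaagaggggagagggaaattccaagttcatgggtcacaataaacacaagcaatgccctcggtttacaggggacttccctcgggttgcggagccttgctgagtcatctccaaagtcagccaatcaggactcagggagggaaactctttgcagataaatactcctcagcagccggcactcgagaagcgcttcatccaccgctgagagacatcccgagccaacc
Gbp2: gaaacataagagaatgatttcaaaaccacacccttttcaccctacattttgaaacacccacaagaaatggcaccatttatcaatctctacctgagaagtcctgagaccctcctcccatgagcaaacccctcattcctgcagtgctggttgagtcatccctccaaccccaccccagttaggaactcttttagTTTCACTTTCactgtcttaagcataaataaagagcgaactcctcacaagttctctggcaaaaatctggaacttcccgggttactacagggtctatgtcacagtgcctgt
Igtp: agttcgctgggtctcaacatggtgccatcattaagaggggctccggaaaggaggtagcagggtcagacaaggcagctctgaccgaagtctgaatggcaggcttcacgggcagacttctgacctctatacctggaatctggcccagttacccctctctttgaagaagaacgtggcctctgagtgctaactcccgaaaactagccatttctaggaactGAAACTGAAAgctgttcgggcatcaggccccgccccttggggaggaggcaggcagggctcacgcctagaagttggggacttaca
The Rsad2 window spans chr12:26456403-26456702 on the minus strand, with the middle of its match at -115 from the start. Ifit3 lies at chr19:34583279-34583578 on the plus strand and holds 2 matches, at -151 and -117. Cxcl10 lies at chr5:92348840-92349139 on the minus strand with its match at -208, Gbp2 at chr3:142620413-142620712 on the plus strand with its match at -54, and Igtp at chr11:58199306-58199605 on the plus strand with its match at -29. These 5 are shown because they hold a match. The windows of Cmpk2, Ifi47, Phf11d, Oasl1, Oasl2, Uba7 and Hap1 among the largest rises, and of Tap1, Cxcl9, Irf5 and Mpeg1 among the largest bounds, hold no match to these letters, which says nothing of elements outside the window or of other spellings.

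The share of promoters with an ISRE core followed the size of the rise. It was 35.3% (18 of 51 promoters) for rises of at least 8-fold, 38 of 253 promoters for rises of 2-fold to under 8-fold, 5.64% for smaller rises, 1.53% for falls and 2.62% for genes not called, beside 3.17% of the promoters of all tested genes and 3.44% of all promoters in the table. The matches of the 8-fold class lay near the start, with a median of -44.5 bases and 69.2% within 100 bases before it, against a median of -130 and 27.5% among genes not called. The GAS letters TTCNNNGAA, on both strands, were found in 23.5% of promoters in the 8-fold class and in 8.30% of the 2-fold to 8-fold class, beside 6.74% of all tested genes. The element TGATGNAA, bound by C/EBP and ATF factors, stood at 9.80% in the 8-fold class and at 2.19% over all tested genes. A match is a run of letters and not a measured binding site.

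**Figure D2:**
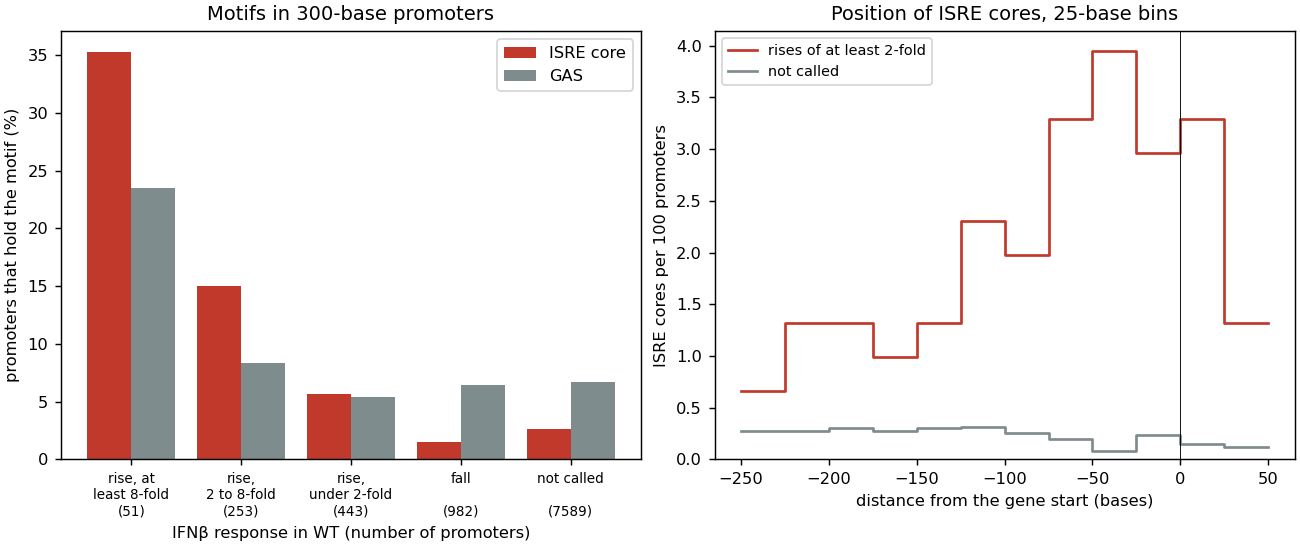
The left panel gives the percentage of 300-base promoters that hold the ISRE core or the GAS letters by size class of the WT response, with the number of promoters in brackets. The right panel gives ISRE cores per 100 promoters in 25-base bins by distance from the gene start, for all rises of at least 2-fold pooled and for genes not called. The ISRE share is 35.3% in the class of at least 8-fold rises and 2.62% in genes not called. Of the pooled rises, the 8-fold class has a median core position of -44.5 bases from the start and the 2-fold to under 8-fold class one of -75.

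Of 11 tested receptor subunits, JAK kinases and STATs, 2 were called higher, Stat2 and Jak2, and 1 lower, the interferon gamma receptor subunit Ifngr1 (2 lower without untreated replicate 1), beside 18.7% of all tested genes called. Over all tested genes 8.08% were called higher and 10.7% lower, the shares to read every list count below against. The detection filter let in members seen only with IFNβ, so shares of list members called higher are a description. Stat2 had 7.51, 7.57 and 7.44 on IFNβ arrays and was not detected on any untreated array, so that its rise was at least 6.05-fold (adjusted p = 2.9e-10). Such bounds are given for genes detected on 0 arrays of the dimmer group, and all so named had an adjusted p of 0.0014 (Oas1c) or less. Jak2 had 8.55, 8.40 and 8.18 with IFNβ and 7.36, 6.99 and 6.50 untreated (1.43 ± 0.18, adjusted p = 5.5e-05). Ifngr1 had 7.20, 7.26 and 7.33 with IFNβ and 7.93, 7.84 and 7.92 untreated, and fell by 0.63 ± 0.11 (adjusted p = 7.8e-04). Its call was lost within replicate 3 alone. That setting, here and below, holds 1 array of each WT group, so a call lost there says little of the size of the change. The groups did not overlap for these 3 genes. Over all tested genes, 11.8% lay higher and 22% lower without overlap. Ifnar2, Tyk2, Jak1 and Stat3 did not pass the test, with changes of -0.10, -0.01, 0.32 and 0.25. With same-numbered arrays as pairs, Jak1 passed (adjusted p = 0.043).

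Interferon regulatory factors amplify or limit the response, and 5 of 9 tested members were called higher (55.6%, beside 8.08% of all tested genes). Irf7, the factor that drives later interferon genes, had 9.28, 8.88 and 9.02 with IFNβ and 5.26, 4.80 and 4.40 untreated, with detection on 1 of 3 untreated arrays (4.24 ± 0.19, adjusted p = 7.0e-10). Irf5 rose at least 7.72-fold over a signal that was not detected on untreated arrays (adjusted p = 7.5e-11). Irf1 rose by 1.98 ± 0.14, Irf9, the DNA-binding partner of the STATs, by 1.67 ± 0.14, and Irf2, a repressor of ISRE genes, by 0.62 ± 0.12. The Irf2 call was lost within replicate 3 alone. The single call lower, Irf3, was at -0.33 and lost its call without IFNβ replicates 1, 2 or 3 or untreated replicates 1 or 3, when 0 members were called lower.

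Some negative regulators of the pathway rose. Of 15 tested feedback genes 5 were called higher (33.3%, beside 8.08% of all tested genes) and 1 lower (6.67%, beside 10.7%). The count called lower was 0 without IFNβ replicates 2 or 3 or untreated replicates 1 or 2, and 2 with pairs. Usp18, a protease that strips ISG15 and blocks the receptor, had 13.20, 13.21 and 13.16 with IFNβ and 9.50, 8.57 and 8.39 untreated (4.37 ± 0.22, adjusted p = 2.2e-09). Trex1 and Samhd1, enzymes that degrade DNA and its building blocks, rose by 3.13 ± 0.11 and 2.43 ± 0.11. Socs3, a JAK inhibitor, rose by 0.61 ± 0.13 (adjusted p = 0.0048, not called within replicate 3 alone), while Socs1 at 0.57 ± 0.21 did not pass (adjusted p = 0.072, or 0.0095 with pairs). The PIAS genes and the phosphatases Ptpn1, Ptpn2 and Ptpn11 did not pass either, with changes between -0.21 and 0.08.

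Of 18 tested sensors of foreign nucleic acid and their adaptors 11 were called higher, with a median log2 change of 1.29 beside -0.08 over all tested genes. The RNA helicases of the RIG-I family all rose. Dhx58 (LGP2) had 10.04, 9.73 and 9.66 with IFNβ and 6.58, 5.47 and 5.55 untreated (3.95 ± 0.24, adjusted p = 1.8e-08), Ddx58 (RIG-I) rose by 2.58 ± 0.12, and Ifih1 (MDA5) by at least 2.95-fold. Tlr3, the endosomal receptor for double-stranded RNA, rose at least 4.70-fold. Zbp1, a sensor of Z-form nucleic acid, rose by 2.04 ± 0.17, and the DNA sensor Cgas by 1.05 ± 0.11. Tlr2 and its adaptor Myd88 rose by 1.83 ± 0.17 and 1.80 ± 0.09. The adaptor Mavs (-0.10) and the kinase Tbk1 (0.22), which act downstream of the RNA helicases, did not pass the test, nor did the receptor Tlr4 (0.14) or the helicase Ddx41 (-0.29, adjusted p = 0.029 with pairs).

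Most genes of direct antiviral effectors rose. Of 12 genes on the array in the list of oligoadenylate synthetases and RNase L, 8 were tested, all of them from the synthetase family. All 8 were called higher (median 3.78, or 3.32 with genes undetected in untreated cells set at their bound). The active synthetases of this family make the messenger that activates RNase L. Oasl1 had 9.74, 9.88 and 9.98 with IFNβ and 5.15, 4.32 and 4.53 untreated (5.20 ± 0.17), and Oas1g had 10.99, 10.74 and 11.07 with IFNβ and 7.05, 6.32 and 6.43 untreated (4.33 ± 0.16, adjusted p = 1.8e-10). Oas2 was undetected in untreated cells and rose at least 16.7-fold. Of 27 other effectors 25 were called higher (median 2.03). The dynamin-like GTPases Mx2 and Mx1 rose by 4.76 ± 0.14 and by at least 5.97-fold. The translation-blocking kinase Eif2ak2 (PKR) had 11.56, 11.53 and 11.11 with IFNβ and 9.16, 8.81 and 8.61 untreated (2.54 ± 0.18, adjusted p = 1.4e-07). Rises were smaller for the membrane restriction factors Ifitm3 (13.16 ± 0.15 with IFNβ, 11.52 ± 0.37 untreated, SD) and Bst2 (11.58 ± 0.23 with IFNβ, 10.18 ± 0.16 untreated). Plscr1 (-0.06) and Ifi27 (-0.15) were the 2 effectors that did not pass. The 3 tested Ifit genes, of 5 on the array, and all 5 genes of the ISG15 conjugation system on it were called higher. In the ISG15 system the modifier Isg15 had 13.45, 13.09 and 13.44 with IFNβ and 9.96, 8.94 and 9.04 untreated (4.02 ± 0.22), its activating enzyme Uba7 rose by 4.98 ± 0.17 and its conjugating enzyme Ube2l6 by 3.83 ± 0.14.

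Large GTPases that act on pathogen-holding vacuoles rose together. All 6 tested genes of the guanylate-binding protein list, which includes Gvin1, and 8 of 9 tested immunity-related GTPase genes were called higher. Each list had 12 genes on the array, and those not tested had not passed the detection filter. Gbp3 had 12.06, 12.13 and 11.92 with IFNβ and 7.99, 6.94 and 6.64 untreated (4.85 ± 0.27), and Gbp7 rose by 4.22 ± 0.18. Ifi47 had 10.60, 10.33 and 10.84 with IFNβ and 5.40, 4.99 and 5.37 untreated (5.34 ± 0.18, adjusted p = 5.8e-11). Irgm2 rose by 4.27 ± 0.17, and its relative Irgm1, at 13.24 ± 0.03 with IFNβ and 11.88 ± 0.18 untreated (SD), by 1.36 ± 0.10 on the probe used, with 2.23 and 3.29 on its other probes.

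Other families were mixed. In the Ifi200 family of DNA-binding proteins 3 of 6 tested members were called higher. Ifi202b rose by 3.59 ± 0.18, and Ifi204 and Ifi207 by at least 3.28-fold and 2.54-fold. Ifi205 and Ifi211 were detected on 0 of the 6 WT arrays and entered the test through DKO arrays alone, and Ifi213 changed by 0.22 ± 0.14. Among 13 ADP-ribosyltransferase and partner genes 9 were called higher, led by Parp14 (4.98 ± 0.20), Parp12 (3.56 ± 0.17) and Dtx3l (3.34 ± 0.13). The other probe of Dtx3l gave 0.14 and was not called. Of 25 TRIM ubiquitin ligase genes 7 were called higher and the list median was -0.07, beside -0.08 over all tested genes. Trim30a rose at least 6.50-fold and Trim21, the cytosolic antibody receptor, by 2.92 ± 0.11. The 2 lower calls in each of the ADP-ribosyltransferase and TRIM lists were not stable, with 1 left in the first list whichever array was left out and 1 in the second without untreated replicate 1 or IFNβ replicates 1, 2 or 3. With pairs these lists had 4 and 6 lower calls. Of 6 PML nuclear body genes 4 were called higher, among them the scaffold Pml (11.36, 11.18 and 11.18 with IFNβ, 8.78, 8.62 and 8.53 untreated) and the histone chaperone Daxx (2.76 ± 0.12).

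Most genes of antigen processing for MHC class I rose. The immunoproteasome replaces catalytic subunits of the constitutive proteasome, and all 5 genes of this list were called higher. Psmb9 had 10.17, 9.62 and 10.03 with IFNβ and 5.92, 5.33 and 5.39 untreated (4.40 ± 0.19, adjusted p = 5.5e-10), Psmb8 rose by 3.67 ± 0.19 and Psmb10 by 3.20 ± 0.10, and the activator subunits Psme1 and Psme2 by 1.79 ± 0.13 and 0.98 ± 0.14. By contrast 1 of 28 constitutive proteasome genes was called higher and 1 lower, the second lost without IFNβ replicates 1 or 2 or untreated replicates 1 or 2 (then 0, and 3 with pairs), with changes of -0.34 to 0.43 in the list. Of 18 genes of peptide transport and class I display 15 were called higher (median 2.30). The others were Erap1, which trims peptides (0.41), and the chaperones Calr (0.29, adjusted p = 0.034 with pairs) and Pdia3 (0.18). The peptide transporter subunit Tap1 was undetected in untreated cells and rose at least 14.3-fold, and its partner Tap2 had 11.20, 11.27 and 11.48 with IFNβ and 8.31, 7.62 and 8.00 untreated (3.35 ± 0.15). Nlrc5, the transactivator of class I genes, rose at least 11.2-fold. The light chain B2m had 13.54, 13.31 and 13.26 with IFNβ and 12.58, 12.17 and 12.00 untreated (1.12 ± 0.14, adjusted p = 5.8e-05). H2-K1, a classical heavy chain, varied within both groups, at 10.43, 10.52 and 11.35 with IFNβ and 8.90, 8.18 and 9.49 untreated (1.91 ± 0.33, adjusted p = 8.9e-04). Heavy chain genes are near copies of each other and the probes were not placed on the genome, so how far each probe reads its own gene was not tested, and the same holds for the Oas1, Gbp and Ifi200 clusters. The 3 tested genes of the MHC class II list, H2-DMa, H2-DMb1 and H2-DMb2, changed by -0.21, 0.02 and 0.09 and did not pass, with unadjusted p-values of 0.13, 0.91 and 0.64 in limma.

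Secreted and surface proteins changed selectively. Of 13 tested chemokines 7 were called higher (median 0.41, or 0.35 with undetected genes at their bound). Cxcl9, a second ligand of the Cxcl10 receptor, rose at least 12.0-fold over an undetected signal. The monocyte attractants Ccl7 and Ccl2 had 10.95, 10.71 and 10.59 and 9.49, 9.24 and 9.91 with IFNβ, against 8.58, 7.94 and 7.94 and 7.41, 6.84 and 7.41 untreated, rises of 2.60 ± 0.17 and 2.33 ± 0.22. Ccl5 and Cxcl1 rose by 1.15 ± 0.16 and 1.12 ± 0.18, and Cxcl12, the homeostatic stromal chemokine, did not pass on the probe used (-0.30, adjusted p = 0.068, or 0.020 with pairs), although probes at -0.53 and -0.50 did and a probe at -0.22 did not. Among 13 cytokine and receptor genes 8 were called higher. Il15, which sustains natural killer cells, had 7.87, 7.98 and 7.26 with IFNβ and 5.50, 5.11 and 5.30 untreated (2.40 ± 0.17), and the gene of its presenting chain, Il15ra, rose at least 1.85-fold. Il18 and Il6 rose at least 3.03-fold and 1.25-fold. Of 8 surface ligands 5 were called higher. Cd274 (PD-L1), which inhibits T cells, had 8.57, 8.69 and 8.61 with IFNβ and 4.97, 4.79 and 4.71 untreated, with detection on 1 of 3 untreated arrays (3.80 ± 0.11, adjusted p = 3.8e-11). The antiphagocytic signal Cd47 rose by 1.63 ± 0.13 and the adhesion molecule Vcam1 by 0.91 ± 0.09.

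Effectors of lytic and apoptotic death rose in part, with 9 of 24 tested genes called higher (37.5%, beside 8.08% of all tested genes). Mlkl, the pore-forming executioner of necroptosis, had 11.20, 11.25 and 11.20 with IFNβ and 8.55, 8.32 and 8.14 untreated (2.88 ± 0.13, adjusted p = 6.5e-10). Gsdmd, the pore former of pyroptosis, rose by 2.13 ± 0.16 and Casp4, the caspase that cleaves it, by at least 1.47-fold. Ripk3, the kinase that activates MLKL, was at -0.40 and did not pass (adjusted p = 0.20, or 0.020 with pairs). The count called lower was 3 (12.5%, near the 10.7% over all tested genes), and 1 without IFNβ replicate 1 or untreated replicates 1 or 2. Enzymes of small-molecule metabolism with 6 of 11 genes higher included Gch1, the entry enzyme of tetrahydrobiopterin synthesis, with 10.52, 10.15 and 10.38 with IFNβ and 8.03, 7.52 and 8.03 untreated (2.49 ± 0.14), Nampt of NAD salvage (1.56 ± 0.18) and the uridine phosphorylase Upp1 (1.24 ± 0.14).

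In the union of all interferon lists, 151 of 250 tested genes were called higher, and their median change was 1.08, beside -0.08 over all tested genes. These lists were assembled from genes known to answer interferons, and earlier results of these arrays were known, so their direction is a description. They held 49 of the 57 rises of at least 8-fold, but 129 of the 284 rises of at least 2-fold, with 155 outside.

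**Figure D3:**
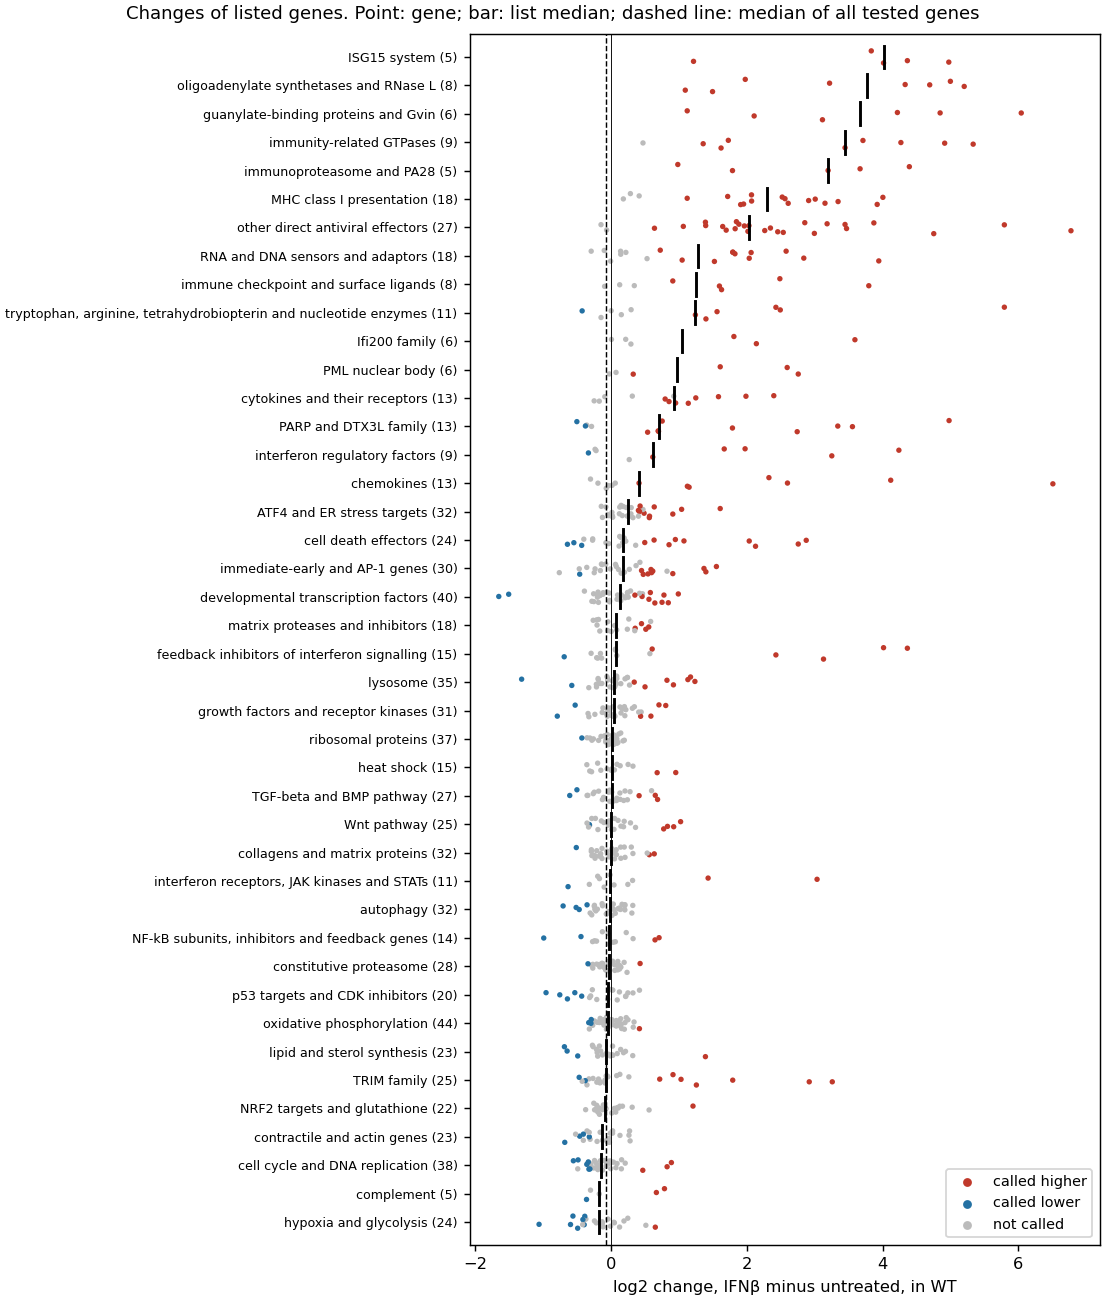
Each point is a tested gene, placed by its log2 change (IFNβ minus untreated) in WT cells, in rows of lists with at least 5 tested members (number in brackets) ordered by median; the short bar is the list median and the dashed line the median of all tested genes, -0.08. Rows from the ISG15 system (median 4.02) to the RNA and DNA sensors (1.29) lie to the right, while proteasome, ribosomal and oxidative phosphorylation rows centre near 0.

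Some stress and immediate-early genes rose as well, by smaller amounts. Of 30 tested immediate-early genes 10 were called higher and 1 lower (the counts were 6 and 2 without IFNβ replicate 2, and 13 and 3 with pairs), beside 8.08% and 10.7% of all tested genes. The mRNA-destabilising protein gene Zfp36 had 9.35, 9.68 and 9.52 with IFNβ and 8.28, 8.00 and 7.61 untreated (1.55 ± 0.17, adjusted p = 1.3e-05). Klf4 rose by 1.37 ± 0.11 and Fosb by 1.40 ± 0.31, whereas Fos, at 0.83 ± 0.37 with a high untreated replicate 1 (10.00, against 9.08 and 8.95), did not pass (adjusted p = 0.14, or 0.038 with pairs). Among 32 targets of ATF4 and of endoplasmic reticulum stress 10 were called higher, and the median was 0.25. Ddit3 (CHOP) had 8.67, 7.94 and 8.09 with IFNβ and 6.75, 6.66 and 6.45 untreated (1.61 ± 0.16, adjusted p = 5.7e-06), and the glutathione-degrading enzyme Chac1 rose by 1.04 ± 0.13, while Atf4 itself was at 0.15 and Asns, a standard ATF4 target, at -0.03, neither called. The haem oxygenase Hmox1 rose by 1.21 ± 0.11 and was the single gene called among 22 NRF2 targets (an additional gene was called lower without IFNβ replicate 1, and with pairs 2 were called higher and 1 lower). Nqo1 stood at -0.37 (adjusted p = 0.069, or 0.0115 with pairs). The heat shock genes Hspa1a and Hspa1b rose by 0.95 ± 0.16 and 0.68 ± 0.15, the second not under median scaling, and the other 13 genes of that list did not pass (1 of them was called lower without untreated replicate 1, and 3 with pairs). In the list of NF-kB subunits and feedback genes 2 of 14 were called higher and 2 lower (1 lower without IFNβ replicates 2 or 3 or untreated replicates 1 or 2), 14.3% each beside 8.08% higher and 10.7% lower over all tested genes. The rises were Nfkbiz (0.71 ± 0.14) and Nfkbia (0.65 ± 0.12, not called within replicates 1 and 2 alone), while the receptor adaptor Traf1 fell by 0.99 ± 0.11.

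Of 40 developmental transcription factors 9 were called higher (22.5%, beside 8.08% of all tested genes) and 2 lower, Sox11 and Foxq1, which are described with the largest falls. With pairs 14 were called higher and 4 lower. Dlx1 had 7.55, 7.82 and 7.58 with IFNβ and 6.55, 6.75 and 6.68 untreated (0.99 ± 0.10, adjusted p = 6.9e-06), and the mesenchyme factors Twist1 and Prrx1 rose by 0.84 ± 0.12 and 0.78 ± 0.14. In the Wnt list 4 of 25 were called higher (16%, beside 8.08% of all tested genes) and 1 lower. The count of falls was 2 without IFNβ replicate 1, 0 without any other array and 4 with pairs. Wnt5a had 8.41, 8.82 and 8.39 with IFNβ and 7.45, 7.76 and 7.33 untreated (1.03 ± 0.17), the receptor Fzd5 rose by 0.78 ± 0.12 with 0.07 on its other probe, which did not pass, and the secreted antagonist Sfrp1 by at least 1.47-fold. In the TGF-beta and BMP list 3 of 27 genes were called higher (11.1%) and 2 lower (7.41%), the second being Fstl3 and Tgfb1. Without IFNβ replicates 1 or 3, 1 was called higher. The BMP antagonist Grem1 rose by 0.69 ± 0.16. Of 31 growth factor and receptor kinase genes 4 were called higher (12.9%) and 2 lower (6.45%), beside 8.08% and 10.7% of all tested genes. Their changes spanned -0.79 to 0.81. The higher count was 1 without IFNβ replicate 1 or untreated replicate 2, and 2 without IFNβ replicate 3. Of the platelet-derived growth factors, Pdgfb had 5.04, 5.10 and 4.70 with IFNβ and 5.85, 5.65 and 5.71 untreated (-0.79 ± 0.15, adjusted p = 0.0020). Of 32 collagen and matrix genes 29 did not pass the test, Col1a1 at -0.24 among them, and with pairs 5 were called higher and 4 lower.

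Falls were shallow but many. Sox11, a factor of progenitor cells, had 6.47, 6.79 and 6.48 with IFNβ and 7.96, 8.36 and 8.38 untreated (-1.65 ± 0.13, adjusted p = 2.7e-07), although its other probe at -0.32 did not pass. Foxq1, a forkhead factor, had 5.90, 6.31 and 5.72 with IFNβ and 7.31, 7.52 and 7.63 untreated (-1.51 ± 0.14, adjusted p = 2.8e-06). Atp6v0a1, a subunit of the proton pump that acidifies lysosomes, had 6.54, 6.18 and 6.08 with IFNβ and 7.70, 7.72 and 7.33 untreated (-1.32 ± 0.16, adjusted p = 3.8e-05). In none of these genes did the groups overlap, which was so for 22% of all tested genes on the lower side. The double-stranded RNA editor Adarb1 had 7.15, 7.11 and 7.11 with IFNβ and 8.27, 8.57 and 8.18 untreated (-1.22 ± 0.13), whereas its relative Adar, which has an interferon-driven isoform, rose by 1.88 ± 0.11. Btbd11 and the microtubule adaptor Hook3 fell by 1.34 ± 0.17 and 1.26 ± 0.13, but their other probes, at 0.16 for Btbd11 and at -0.29 and -0.16 for Hook3, did not pass. The pyrophosphate transporter gene Ank fell by 1.18 ± 0.17. Igsf9, Mcrip2, Get1, Gdpd5, Grhpr and Ctdspl followed with changes of -1.14 to -1.04, and the other probe of Igsf9 at -0.22 did not pass. Egln3, an oxygen-sensing hydroxylase, was undetected with IFNβ and at least 1.73-fold lower (adjusted p = 8.3e-05). Rap1gap was at least 1.34-fold lower.

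**Figure D4:**
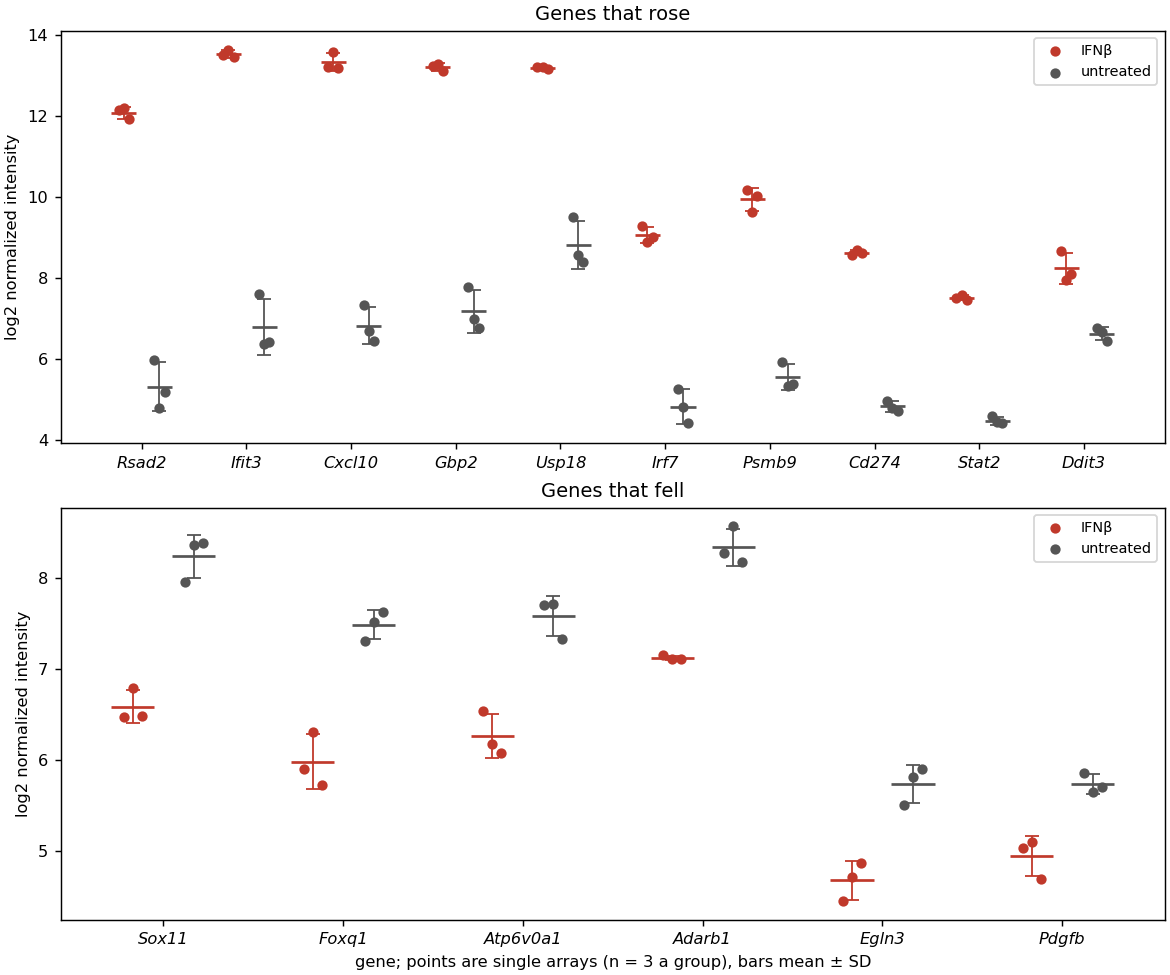
Log2 normalized intensity of 10 genes that rose (upper panel) and 6 that fell (lower panel), with a point for each of the 3 WT arrays a group, IFNβ left of untreated, and bars for the mean ± SD. No gene shown has overlapping groups, as for 11.8% of all tested genes on the higher and 22% on the lower side. Rsad2 lies at 11.91 to 12.19 with IFNβ and 4.77 to 5.96 untreated, Sox11 at 6.47 to 6.79 and 7.96 to 8.38.

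Over all tested genes 10.7% were called lower, which is the share to read the following counts against. Hypoxia and glycolysis had 7 of 24 genes called lower (29.2%, 5 to 8 with an array left out) at a median of -0.17. In this list 1 gene was called higher, Ndrg1, at 0.56 to 0.77 with an array left out. Its call was lost under median scaling. The count called higher was 2 without IFNβ replicate 1 or untreated replicate 3. Both muscle and liver phosphofructokinase genes fell on the probes used, Pfkm by 0.60 ± 0.12 and Pfkl by 0.56 ± 0.10, although the Pfkm call was lost on the mean of its probes and the other Pfkl probe, at -0.10, did not pass. Of 20 p53 targets and CDK inhibitors 5 were called lower (25%, 4 or 5 genes with an array left out, 8 with pairs). Zmat3, an RNA-binding p53 target, had 6.10, 6.20 and 5.92 with IFNβ and 7.00, 7.08 and 7.01 untreated (-0.96 ± 0.11, adjusted p = 1.4e-05), and the stress-response gene Sesn1 fell by 0.75 ± 0.17, while Cdkn1a (0.22) and Mdm2 (-0.28, adjusted p = 0.036 with pairs) did not pass. In the cell cycle list 6 of 38 genes were called lower (15.8%, 11 genes with pairs), but 2 without IFNβ replicates 1 or 3 or untreated replicate 1 and 1 without untreated replicate 2. The D-type cyclins Ccnd3 and Ccnd2 rose by 0.89 ± 0.14 and 0.83 ± 0.11. Of 23 contractile genes 4 were called lower (17.4%, 2 genes without IFNβ replicate 3 or untreated replicate 1, 9 with pairs), led by smoothelin, Smtn (-0.68 ± 0.16, lost within replicate 3 alone).

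Of 35 lysosomal genes 7 were called higher (20%) and 2 lower (5.71%). The membrane protein gene Scarb2 rose by 1.24 ± 0.11, the cholesterol carrier Npc2 had 10.42, 10.58 and 10.85 with IFNβ and 9.41, 9.32 and 9.61 untreated (1.17 ± 0.14), and the protease Ctsh rose by 1.13 ± 0.16, against the fall of Atp6v0a1. Of 32 autophagy genes 4 were called lower (12.5%, near the 10.7% over all tested genes), 2 genes without IFNβ replicate 3 or untreated replicate 2, and without IFNβ replicate 2 a gene was called higher. Wipi2, which recruits the conjugation machinery to forming autophagosomes, had 6.78, 7.02 and 6.67 with IFNβ and 7.78, 7.44 and 7.36 untreated (-0.71 ± 0.14, adjusted p = 0.0027), and its other probes stood at -0.46, called, and -0.40, not called. Ulk1 had 6.45, 6.70 and 6.37 with IFNβ and 6.63, 6.80 and 6.49 untreated, which overlap and did not pass (-0.13, adjusted p = 0.49). Ulk2 had 5.84, 6.11 and 5.51 with IFNβ and 6.39, 6.46 and 6.15 untreated (-0.51 ± 0.14, adjusted p = 0.020). Its groups did not overlap, as for 22% of all tested genes on the lower side. The Ulk2 call was lost without IFNβ replicate 3 or untreated replicates 1 or 2, when the adjusted p was at most 0.085. Ribosomal proteins had 1 of 37 genes called (5 with pairs), and oxidative phosphorylation 4 of 44 (3 higher and 8 lower with pairs) with changes from -0.33 to 0.42. The lower calls in both lists mostly depended on single arrays, with 0 left in the first without IFNβ replicates 1 or 3 or untreated replicates 1 or 2, and 0 or 1 of 3 left in the second whichever array was left out.

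A minority of the rises lay in runs of neighbouring genes. Of 276 rises of at least 2-fold that could be placed in RefSeq order, 34 (12.3%) lay in 9 runs of at least 3 such genes with at most 2 coding genes between neighbours. The runs spanned 34.3 to 1172 kb. Tested genes inside them that were not among these rises were Rbfox2, Lipa, Ptgis, Slc9a8, Spata2, Bmpr1b, Pdlim5 and Nup54. The share that gene order alone would give was not tested. On chromosome 17 the run of Psmb9, Tap1, Psmb8 and Tap2 joined 2 immunoproteasome and 2 transporter genes within 34.3 kb. Chromosome 3 held Gbp5, Gbp7, Gbp3, Gbp2b and Gbp2 with Unc5c, a netrin receptor gene that rose by 1.57 ± 0.14. Chromosome 5 held Oas2, Oas1c, Oas1g, Oas1a and Oas1d in one run and Cxcl9, Cxcl10 and Scarb2 in another, and chromosome 19 held Ch25h, Ifit2, Ifit3 and Ifit1bl1. Chromosome 11 held Gm12250, Igtp and Irgm2. Runs outside the known interferon families were Slc24a3, Rin2 and Naa20, and Znfx1, B4galt5 and Rnf114, both on chromosome 2. In the last of these, the helicase gene Znfx1 had 10.00, 10.00 and 9.69 with IFNβ and 7.24, 6.99 and 6.81 untreated (2.88 ± 0.15, adjusted p = 4.2e-09). The apolipoprotein L genes Apol6, Apol7a and Apol9a on chromosome 15 formed the remaining run, with Apol9a up by 2.32 ± 0.14.

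The test of the difference between the responses of DKO and WT cells called 93 of 8898 genes (1.05%). It called 254 with same-numbered arrays as pairs, 201 with a block for background set, and 49 among genes detected on all 6 WT arrays. Of the 284 rises of at least 2-fold, 60 were smaller in DKO cells, 3 were larger and 221 were not called, beside 66 genes in all with a lower change in DKO (0.742%). These genes were picked by the WT change, which is also part of the difference, so the counts are a description. Rsad2 rose by 4.15 in DKO cells and 6.78 in WT cells (difference -2.63 ± 0.34, adjusted p = 0.0011). Mlkl (3.01 in DKO, 2.88 in WT), Tap2 (3.48 in DKO, 3.35 in WT) and Myd88 (1.80 in both) showed differences of 0.13 ± 0.18, 0.13 ± 0.21 and 0.00 ± 0.13, none of them called, also with pairs. Among the 949 falls 7 differed, each with a higher fitted change in DKO cells, with Foxq1 (-0.03 in DKO, -1.51 in WT), Traf1 and Rap1gap among them. In some the DKO change was a rise, as in Zfp324 (0.50 in DKO, -0.46 in WT). The falls too were picked by the WT change, so their shared direction is a description.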

How the data were processed

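RNA of 12 samples, 3 arrays in each of 4 groups, was labelled as biotinylated cRNA and read on Illumina mouse bead arrays, per the labels' protocols. The authors deposited a linear intensity per probe and array, neither background-subtracted nor scaled, as the name and the values of the deposited table show. They deposited a detection p-value beside each intensity, per the file headers. A further deposited table holds log2 values of the same quantiles on every array; which program made them is not stated.

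Background was corrected from the detection p-values (normexp, offset 16), and arrays were then brought to common quantiles on the log2 scale, with the neqc function of limma (3.58.1, under R 4.3.3). Of 45281 probes, 34885 have 1 gene symbol, 18 several and 10378 none in the platform annotation, and 34807 were matched to the reference gene table. A probe was kept if 3 or more of the 12 arrays gave it a detection p under 0.01, and each gene took its brightest probe, which left 8898 genes. A limma model of 4 group means (8 residual and 5.56 prior degrees of freedom) gave the changes, called at a Benjamini-Hochberg adjusted p under 0.05. SDs are over 3 arrays and SEs come from that model. Where a group had 0 detected arrays, the fold is a lower bound, from the other group's mean against the higher, on each array, of the lowest detected signal and the probe's own. The fit was tested on simulated data. Motif counts used Python 3.11 with pandas.

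Same-numbered WT arrays deviated from their group means together (r = 0.36, 0.40 and 0.64, other pairs -0.41 to 0.12, across genes). The other pairs are no independent contrast, because the deviations within a group cancel out in each gene. All changes, errors and calls given come from the unpaired model, and the value with the replicate number as a block stands beside a result where it changes the call ("with pairs"). In WT, replicate 3 is also the set of higher background, so pair and set cannot be told apart.

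Members and lists were chosen with earlier results of these data known. Named genes were the 15 largest rises and falls, the 8 and 4 largest bounds, all members of interferon lists, up to 4 called members of each other list (2 where none was called), Ulk1, Ulk2, runs of neighbours, and the 5 largest differences from DKO each way; others, such as Atf4, Asns, Fos, Nqo1, Cdkn1a, Mdm2, Col1a1 and the genes of the closing observations, were chosen after their values were seen. Alternatives changed the background correction, offset, source table, scaling, filter, probe choice, arrays, pairing, background set and threshold, and left out each array.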

Additional observations from a re-analysis of the deposited data

Results flagged for a closer look

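For 10 named genes the test of the difference itself passed between the IFNβ changes of DKO and WT cells (limma, adjusted over all genes). The rise was smaller in DKO cells for Oasl2 (DKO minus WT -2.87, log2), Ifit3 (-2.65), Rsad2 (-2.63), Gch1 (-2.38) and Usp18 (-2.26). For Gch1 the DKO change was 0.11 and the WT change 2.49. The fitted change was higher in DKO cells for Ifi205 (3.92), Ifi211 (2.55), Ifi213 (1.96) and Sp100 (1.49). Ifi205 and Ifi211 were detected on 0 of 6 WT arrays, so that no WT change could be measured there. They passed the detection filter through DKO arrays alone. Their differences set a DKO change against WT background and do not measure a difference between 2 responses. Sp100 was detected on 0 of 3 untreated WT arrays, so that its WT rise is a lower bound (at least 2.17-fold) and its difference a fitted value only. Foxq1 changed by -0.03 in DKO cells and -1.51 in WT cells, a difference of 1.48. Why the fitted changes differ was not tested.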

How the results depend on the processing

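Of 1668 calls, 1527 were also called, in the same direction, without background correction, 1301 with cyclic loess and 733 within the higher background set alone, which holds 1 array of each WT group, assumed to vary like the DKO groups with 2 arrays each. No named gene reversed a call. The count of genes changed at least 2-fold (300) was 190 without background correction and 188 in the authors' log2 table, and 181 genes passed a test against a 2-fold change itself. Falls (949) numbered 587 with cyclic loess, 492 within the lower set and 311 within the higher set, where 809 genes were called in all. With the replicate block there were 2804 calls, 1788 of them falls, and 254 differences from DKO in place of 93. With the background set as a block there were 2611, 1661 and 201. Differences from DKO numbered 28 and 54 within the lower and higher sets and 49 among genes detected on all 6 WT arrays. With 1 array left out, calls ranged from 1207 to 1418, rises from 626 to 670, falls from 575 to 771, 2-fold changes from 299 to 311 and differences from DKO from 65 to 105. The causes of these shifts were not tested, apart from the fewer samples or genes that some settings hold by construction. For named genes, 94 other probes were called alike, 36 were not called and 20 gave under 50% of the change. Genes detected on 0 arrays of a WT group have bounds in place of WT folds.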

Other observations

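The 155 rises of at least 2-fold outside the interferon lists include genes with no place in the lists used here. The following were picked after their values were seen. The galectin gene Lgals9 had 9.22, 9.33 and 9.43 with IFNβ and 6.07, 5.29 and 5.70 untreated, a rise of 3.64 ± 0.17 (SE, 3 arrays in each group, adjusted p = 1.5e-09 in limma). Samd9l, a cytosolic antiviral gene, rose by 3.68 ± 0.14, the helicase gene Helz2 by 3.63 ± 0.14 and Plekha4 by 3.95 ± 0.28, with 1.95 on its other probe.

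Some of these genes are better known from other tissues. Hdc, which encodes the enzyme that makes histamine, was undetected on untreated arrays and at 7.32, 7.08 and 7.00 with IFNβ, a rise of at least 4.68-fold (limma adjusted p = 2.8e-08). Lmo2, a factor of blood stem cells, rose at least 3.16-fold and Pou3f1, a factor of Schwann cells, at least 2.87-fold. Thbd, the anticoagulant receptor thrombomodulin, rose by 1.56 ± 0.13. The DNA damage kinase gene Atm had 10.57, 10.64 and 10.54 with IFNβ and 9.34, 9.37 and 9.42 untreated (1.21 ± 0.09), with 0.99 and 1.11 on its other probes.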
